A study of Mus musculus with 34 samples.

Results

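The genes described here are 50 genes of mitosis and the spindle, a hand-written list that covers mitotic entry, spindle poles, the spindle checkpoint, kinetochores, the chromosomal passenger complex, mitotic kinesins, cytokinesis and anaphase. Each was read from its brightest probe set on the array, and 49 of the 50 could be tested, among 12723 genes tested in all. Ccnb1, which encodes cyclin B1, was named for no probe set of its own in the annotation used and has no value here. They were measured in total RNA of untreated, freshly isolated mouse fetal liver that was not sorted into cell types, on 34 arrays of embryos lacking combinations of the retinoblastoma family. Besides Rb1 itself the family holds p107, encoded by Rbl1, and p130, encoded by Rbl2.

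The arrays fell into 8 genotypes. There were 2 arrays of wild type, 1 of p107 KO, 3 of p130 KO, 6 of p107;p130 DKO, 2 of Rb1 KO, 5 of Rb1;p107 DKO, 9 of Rb1;p130 DKO and 6 of Rb1;p107;p130 TKO, where KO, DKO and TKO stand for single, double and triple knockout. The sample labels give embryonic day 14.5 for all of them, and the series design gives days 13.5 to 14.5. How the alleles were made, in which cells they were lost and whether each array came from a separate embryo are not given in the sources used here. The p-values therefore measure only the spread between these arrays, which may be technical.

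Retinoblastoma proteins bind E2F transcription factors and hold back genes of the cell cycle. p107 and p130 also join a complex, named DREAM, that keeps mitotic genes silent in resting cells, and in dividing cells the same core complex works with B-MYB and FOXM1 to turn them on in G2 and mitosis. At this stage the fetal liver is filled with dividing red cell precursors. In such bulk tissue, fewer dividing cells and less RNA per dividing cell cannot be told apart.

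DREAM is known to reach mitotic genes through a short promoter element, the cell cycle genes homology region or CHR, often close to CCAAT boxes that bind NF-Y. The promoters of 5 genes that were higher with Rb1 loss are shown for this reason, 250 bases before the start of transcription in each, from RefSeq (GRCm38.p6), 5′ to 3′ on the strand of the gene. They were picked because these 250 bases hold a CHR, so its presence in all 5 is no result. Kif23 and Ndc80, also higher, had their CHR after the start and are not shown. Capitals mark the CHR (TTTGAA or TTCGAA on either strand), the CCAAT box (CCAAT on either strand) and, in Cdk1, words that E2F factors bind. The E2F words searched, on either strand, were TTCCCGC, next TTGGCGC, then TTCGCGC, and last TTGCCGC. In Ube2c a forward and a reverse CCAAT box overlap.
Ckap2 (chr8:22185820-22186069, minus strand): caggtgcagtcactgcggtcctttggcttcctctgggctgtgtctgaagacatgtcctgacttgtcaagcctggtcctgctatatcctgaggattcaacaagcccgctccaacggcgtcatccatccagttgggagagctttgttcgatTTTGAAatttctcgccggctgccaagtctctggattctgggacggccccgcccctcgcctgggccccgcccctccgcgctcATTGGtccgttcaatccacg
Prc1 (chr7:80294226-80294475, plus strand): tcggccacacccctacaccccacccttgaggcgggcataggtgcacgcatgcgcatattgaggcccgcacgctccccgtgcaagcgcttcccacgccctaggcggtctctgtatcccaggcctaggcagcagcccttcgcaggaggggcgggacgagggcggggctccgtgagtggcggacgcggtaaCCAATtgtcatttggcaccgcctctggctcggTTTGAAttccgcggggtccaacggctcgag
Cdk1 (chr10:69352913-69353162, minus strand): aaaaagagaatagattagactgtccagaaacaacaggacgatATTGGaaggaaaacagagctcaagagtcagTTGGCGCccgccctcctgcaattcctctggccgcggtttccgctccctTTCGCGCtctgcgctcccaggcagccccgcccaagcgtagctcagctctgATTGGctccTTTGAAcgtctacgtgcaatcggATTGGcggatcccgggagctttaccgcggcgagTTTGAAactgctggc
Ube2c (chr2:164769679-164769928, plus strand): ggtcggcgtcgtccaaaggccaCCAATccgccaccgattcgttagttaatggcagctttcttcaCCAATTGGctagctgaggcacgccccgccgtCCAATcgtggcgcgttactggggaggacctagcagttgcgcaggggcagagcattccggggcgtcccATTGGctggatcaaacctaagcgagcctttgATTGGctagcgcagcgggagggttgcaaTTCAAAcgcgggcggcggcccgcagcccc
Kif11 (chr19:37376132-37376381, plus strand): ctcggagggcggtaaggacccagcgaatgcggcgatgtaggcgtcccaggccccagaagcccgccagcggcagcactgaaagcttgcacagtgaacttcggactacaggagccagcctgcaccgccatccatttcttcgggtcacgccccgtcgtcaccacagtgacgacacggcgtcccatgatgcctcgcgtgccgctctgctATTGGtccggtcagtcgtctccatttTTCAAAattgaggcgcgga

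Over all mitosis and spindle genes, 42 of the 50 had a promoter in the RefSeq table, which reaches from 250 bases before the start to 50 after it. A CHR was found in 32 of those 42 windows (76.2%), against 21.7% of the 27025 genes with a promoter and 16.5% of the 10283 of them tested on the arrays. A CCAAT box was found in 76.2%, against 41.1% of all genes and 42.5% of the genes tested, and both elements together in 69.0%, against 8.61% and 6.7%. An E2F word was found in 14.3%, above the 10.9% of all genes and below the 18.8% of the genes tested. The CHR lay near the start of transcription in most cases: it began within 50 bases of it in 29 of the 32 genes (90.6%), against 28.2% of all genes that hold a CHR. DNA replication genes had a different makeup, with an E2F word in 66.7% of 30 windows and a CHR in 6 of the 30. Of the genes called with Rb1 loss, 7 of 8 windows held a CHR, and of the other tested mitosis and spindle genes 25 of 33 did, so both sets were rich in the element. A match is a description of these letters and does not show binding.

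**Figure D1:**
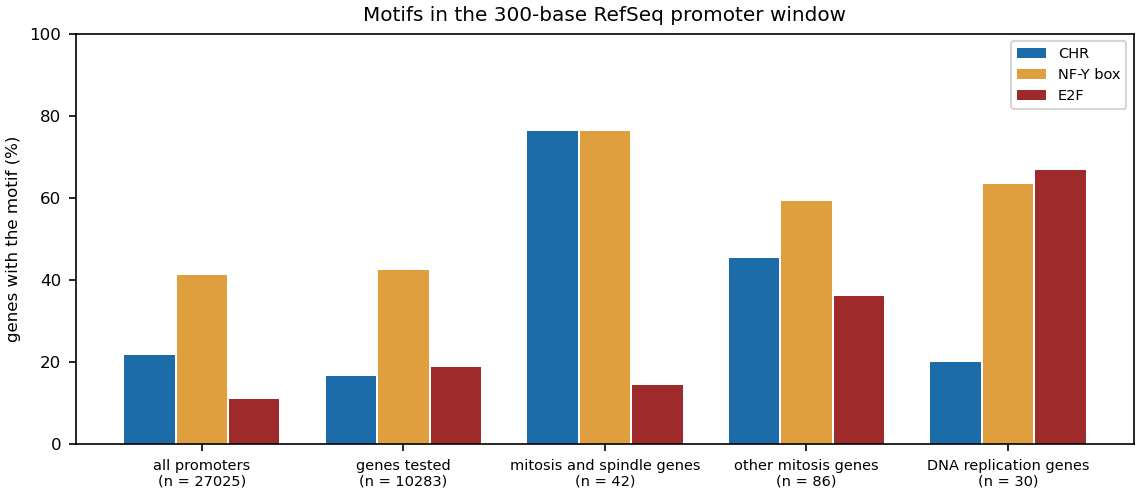
Percentage of genes whose 300-base RefSeq promoter window holds a CHR, a CCAAT box (NF-Y box) or an E2F word, in all promoters, all genes tested, the mitosis and spindle genes, the list of other mitosis genes and DNA replication genes, with the number of genes under each set. The CHR bar stands at 76.2% for the mitosis and spindle genes and at 21.7% for all promoters.

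The targeted genes checked the labels. Rb1 signal had a median of 6105 on the 12 arrays that carry Rb1 and 1306 on the 22 that lack it, and Rbl1 and Rbl2 were likewise lower on the arrays labelled as lacking them, Rbl1 at 43.9 to 139.4 against 1185 to 2713, and Rbl2 at 105.5 to 265.4 against 246.2 to 481.3, the last with overlap. Signals are MAS5 intensities scaled to a common trimmed mean of 500, so they compare arrays for a gene and not genes with each other. The erythroid genes Slc4a1, Alas2, Gata1 and Klf1 and the hepatocyte genes Alb and Afp were far above background on every array, while the probe set named for alpha globin Hba-a1 lay at 3.73 to 99.6. The arrays also split into 3 groups of 15, 10 and 9 by the ratio of the brightest probe sets within single genes. These array groups come from the signals alone and are no recorded batch. Rb1 loss was spread over them, with 6, 4 and 2 arrays that carry Rb1 and 9, 6 and 7 that lack it. p107 was carried on 1 of the 10 arrays of array group 2, and p130 was carried on 0 of the 9 arrays of array group 3, so loss of either is partly tied to array group.

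Loss of Rb1 was accompanied by small rises in part of the mitotic machinery. In an additive limma fit of all 34 arrays, in which Rb1, p107 and p130 loss had 1 term each, 11 of the 49 genes (22.4%) were higher with Rb1 loss over all backgrounds at a Benjamini-Hochberg adjusted p under 0.05, and 0 were lower. Over all genes tested, 1.75% were called higher and 2.26% were called in either direction. The 11 genes were Ckap2, Prc1, Pbk, Cdk1, Nusap1, Tpx2, Ube2c, Esco2, Kif23, Ndc80 and Kif11. The median change of the 49 genes was 0.16 on the log2(signal + 32) scale, a 1.12-fold rise, while the median of all genes was -0.02. The log2 change was above 0 in 42 of the 49 genes, against 45.0% of all genes. At an unadjusted p under 0.05, 24 of the 49 were higher, against 11.3% of all genes in either direction. A change of 1.5-fold or more was reached by 2 of them, Esco2 and Ndc80.

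**Figure D2:**
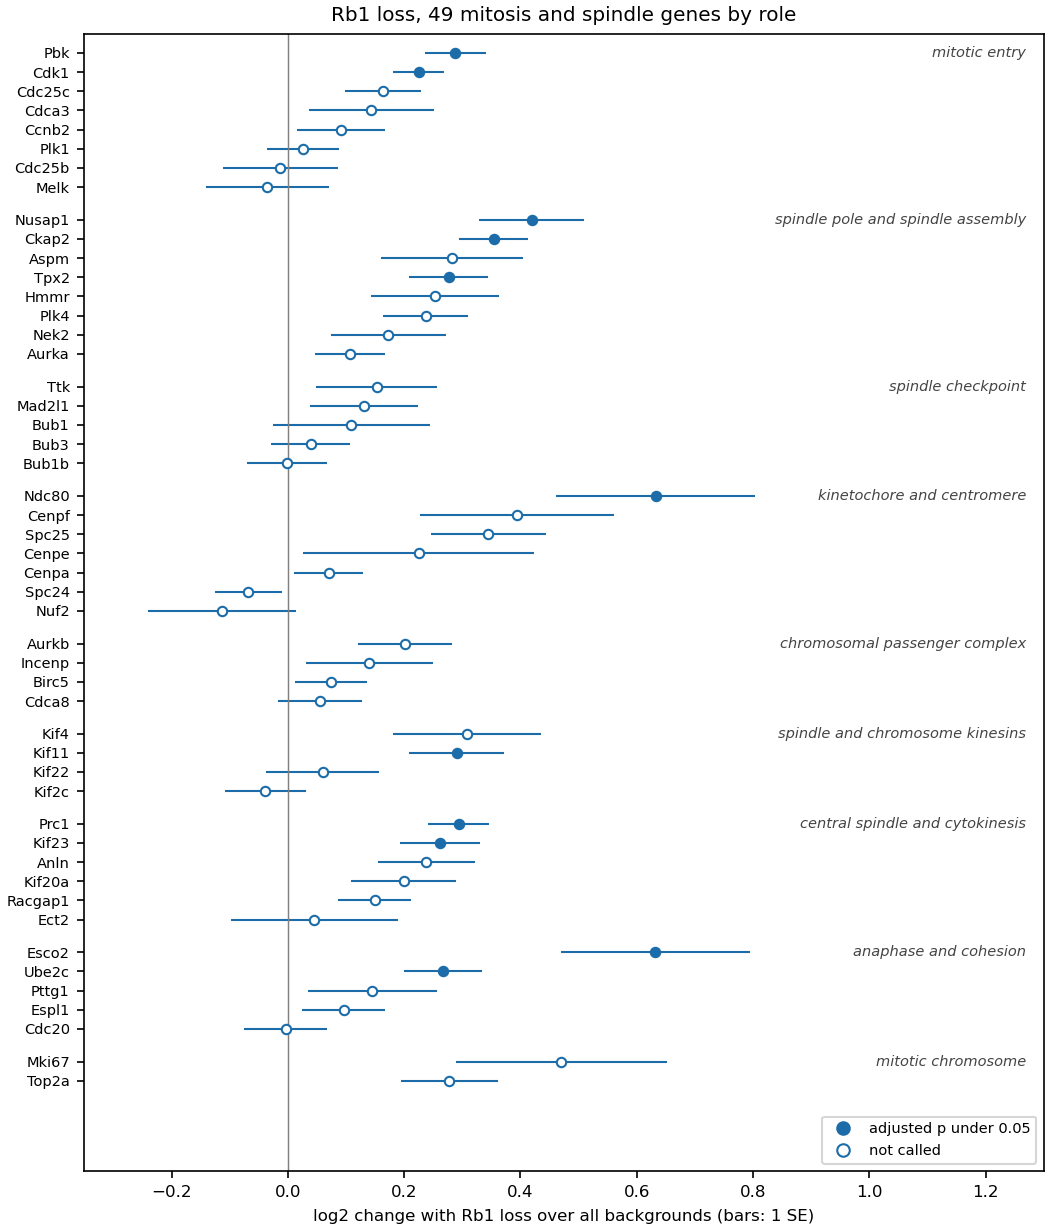
Log2 change with Rb1 loss over all backgrounds for each of the 49 mitosis and spindle genes, grouped by role, with bars of 1 standard error from the limma fit. Filled points passed an adjusted p of 0.05, and 42 of the 49 points lie above 0, from -0.11 for Nuf2 to 0.63 for Ndc80.

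Among the 8 tested genes of mitotic entry, Pbk and Cdk1 rose. Cdk1, the kinase that drives cells into mitosis, had a signal of 6133 to 7446 (median 6956) on the 12 arrays with Rb1 and of 6718 to 8945 (median 7980.0) on the 22 without. The ranges overlapped, but 19 of the 22 arrays without Rb1 lay above the highest array with it. The change was 0.22 ± 0.04 (log2, SE; adjusted p = 0.00133). Pbk, a kinase active in dividing cells, ran from 3069 to 4329 (median 3706) with Rb1 and from 3556 to 5266 (median 4478) without. Its change was 0.29 ± 0.05 (adjusted p = 0.000481). 14 of the 22 arrays without Rb1 were above all of those with it. The other 6 genes of this role did not pass the test, with changes from -0.03 in Melk to 0.16 in Cdc25c. Cdc25b, a phosphatase that activates cyclin-dependent kinases, was among the 3 genes with the smallest test statistics, at 5318 to 11370 (median 6181) with Rb1 and 4426 to 10991 (median 6658) without, and its change of -0.01 ± 0.10 lay within its error.

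All 8 genes of the spindle pole and spindle assembly had a change above 0, with a median of 0.26, and 3 of them rose. Ckap2, a protein of spindle microtubules, had the smallest adjusted p of the 49 genes. Its signal was 1694 and 2302 on the wild type arrays, 1816 on the p107 KO array, 2038, 2051 and 2125 in p130 KO, and 1931 to 2457 (median 2091) in p107;p130 DKO. It was 2301 and 2330 on the Rb1 KO arrays, 2217, 2532, 2649, 2762 and 3206 in Rb1;p107 DKO, 2315 to 3108 (median 2413) in Rb1;p130 DKO and 2349 to 3332 (median 2845) in the triple knockout. Thus 10 of the 12 arrays with Rb1 lay below the lowest array without it, and wild type array 2 and array 6 of p107;p130 DKO were the exceptions. The change was 0.35 ± 0.06, or 1.28-fold (adjusted p = 0.000153). Nusap1, which ties spindle microtubules to chromatin, ran from 4864 to 8262 (median 5716) with Rb1 and from 5102 to 11112 (median 7972) without, a change of 0.42 ± 0.09 (adjusted p = 0.00407). Tpx2, the activator of Aurora A at the spindle, ran from 3253 to 5011 (median 3821) with Rb1 and from 3991 to 6153 (median 4675) without, a change of 0.28 ± 0.07 (adjusted p = 0.0169). All 22 arrays without Rb1 were above the mean of those with it for Tpx2, and 20 of 22 for Nusap1. Aspm, Hmmr, Plk4, Nek2 and Aurka did not pass, with changes from 0.11 in Aurka to 0.28 in Aspm.

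Of the 7 genes of the kinetochore and centromere, 1 rose. Ndc80, the microtubule-binding subunit at the outer kinetochore, was at 344.0 to 762.6 (median 483.1) with Rb1 and at 313.9 to 1424 (median 769.3) without, and it rose by 0.63 ± 0.17 (1.55-fold, adjusted p = 0.0361). The 2 groups overlapped widely, with 11 of 22 arrays above the highest array with Rb1. Its partners in the same 4-protein complex did not pass the test: Spc25 had a change of 0.34 ± 0.10, just short of a call (adjusted p = 0.0558), Spc24 one of -0.07 ± 0.06 and Nuf2 one of -0.11 ± 0.13, the lowest of all 49 genes. Cenpf, Cenpe and Cenpa, proteins of the centromere and corona, had changes of 0.39, 0.22 and 0.07 and did not pass.

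Of the 5 spindle checkpoint genes limma called 0 (0 at an unadjusted p under 0.05), and of the 4 genes of the chromosomal passenger complex it called 0 (1 at an unadjusted p under 0.05). Of the checkpoint genes, which hold back anaphase until chromosomes are attached, changes ran from -0.0013 in Bub1b to 0.15 in Ttk. Bub1b had the smallest test statistic of the 49, with a signal of 2352 to 3211 (median 2756) with Rb1 and 2108 to 3680 (median 2768) without. The passenger genes Aurkb, Incenp, Birc5 and Cdca8, which correct attachments and guide cytokinesis, had changes from 0.06 in Cdca8 to 0.20 in Aurkb. At an adjusted p of 0.05, therefore, both roles stayed without a call, which does not show that they were unaltered.

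Of the motors and cytokinesis genes, Kif11, Prc1 and Kif23 rose. Kif11, the kinesin that pushes spindle poles apart, ran from 1450 to 2350 (median 1766) with Rb1 and from 1675 to 3249 (median 2208) without, a change of 0.29 ± 0.08 (adjusted p = 0.0480). Prc1, which bundles the microtubules of the central spindle, ran from 3286 to 4723 (median 3631) with Rb1 and from 3773 to 5195 (median 4684) without. It rose by 0.29 ± 0.05 (adjusted p = 0.000414), and all 22 arrays without Rb1 lay above the mean of those with it. Kif23, the motor of the centralspindlin complex, ran from 1492 to 2269 (median 1711) with Rb1 and from 1717 to 2671 (median 2128) without, a change of 0.26 ± 0.07 (adjusted p = 0.0274). All 6 genes of the central spindle and cytokinesis had a change above 0, down to 0.05 in Ect2, the exchange factor that activates RhoA at the cleavage site. The other kinesins Kif4, Kif22 and Kif2c had changes of 0.31, 0.06 and -0.04 and did not pass. Further probe sets of Kif2c had changes of 0.16, 0.07 and -0.11 and did not pass either.

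In the group of anaphase and cohesion, Ube2c and Esco2 rose and Cdc20 did not. Ube2c, the ubiquitin-conjugating enzyme of the anaphase-promoting complex, ran from 17468 to 24529 (median 20664) with Rb1 and from 19678 to 30289 (median 25664) without. Its change was 0.27 ± 0.07 (adjusted p = 0.0201). Cdc20, the activator of that same complex, ran from 11491 to 19376 (median 16490) with Rb1 and from 10486 to 19914 (median 15873) without, and its change was -0.0034 ± 0.07 (adjusted p = 0.993). That value is of its brightest probe set. The other probe sets of Cdc20 had changes of 0.11 ± 0.05 and -0.03 ± 0.10 and did not pass. Esco2, the acetyltransferase that locks cohesin around sister chromatids, ran from 796.3 to 1587 (median 994.8) with Rb1 and from 640.7 to 3210.3 (median 1773) without, and 13 of the 22 arrays lay above the highest array with Rb1. It rose by 0.63 ± 0.16 (1.55-fold, adjusted p = 0.0248). Pttg1 (securin) and Espl1 (separase) had changes of 0.15 and 0.10. Of the mitotic chromosome genes, Top2a had a change of 0.28 ± 0.08 (adjusted p = 0.0754) and Mki67, whose protein is the proliferation antigen Ki-67, one of 0.47 ± 0.18 (adjusted p = 0.246), so neither passed.

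The call stood for Ckap2, Prc1, Pbk, Cdk1, Nusap1 and Tpx2 whichever single array was left out. It was lost for Ube2c and for Esco2 in 2 of the 34 such fits each, for Kif23 in 7, for Ndc80 in 14 and for Kif11 in 25. The number called fell to 7 without wild type array 1, without the p107 KO array and without p130 KO array 1, and was 8 to 14 without any other single array. Tested by probe set in place of gene, 12 of 105 probe sets of these genes were called, all higher, and they belonged to 11 genes. The share called among all 23418 probe sets tested is not given, so this count has no background beside it. In this limma test Kif11 was called through another probe set, at 0.40 ± 0.09 (adjusted p = 0.0118). Its brightest probe set did not pass (adjusted p = 0.0562). Of 10 further probe sets of the called genes, 9 had a change above 0.

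The level of these genes also differed between array groups. As a per-array measure, the median over the 49 genes of the log2 signal minus the gene's mean ran from -0.24 to 0.15 with Rb1 and from -0.15 to 0.33 without. Of its variance 52.5% lay between array groups, 47.4% between genotypes and 27.0% between arrays with and without Rb1, shares that overlap each other. In array group 1 the 6 arrays with Rb1 lay between -0.24 and -0.19 and the 9 without between -0.12 and 0.04, with no overlap. In array group 2 the 4 with Rb1 lay between -0.09 and 0.15 and the 6 without between 0.14 and 0.33, overlapping at one end. In array group 3 the 2 with Rb1 were at -0.06 and -0.04 and the 7 without between -0.15 and 0.20, so they overlapped. Summed signals of marker genes differed between array groups too. In array groups 1, 2 and 3 the medians were 113730.1, 142720.5 and 119704 for 8 erythroid genes, 133702, 170428 and 151285 for 6 hepatocyte genes, 3202, 3878 and 3750.2 for 6 endothelial genes and 18498, 23033 and 26704 for 7 megakaryocyte genes. Macrophage medians were 9707, 10903 and 9686, and neutrophil medians 62002, 65403 and 54926. Stellate and mesenchymal medians, at 11744, 10016 and 11383, were highest in array group 1. Lymphoid medians, at 415.2, 511.1 and 462.0, were lowest there. The shift was thus seen in markers of several cell types but not of all. The part of these cell types in the level of the mitosis genes was not tested.

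**Figure D3:**
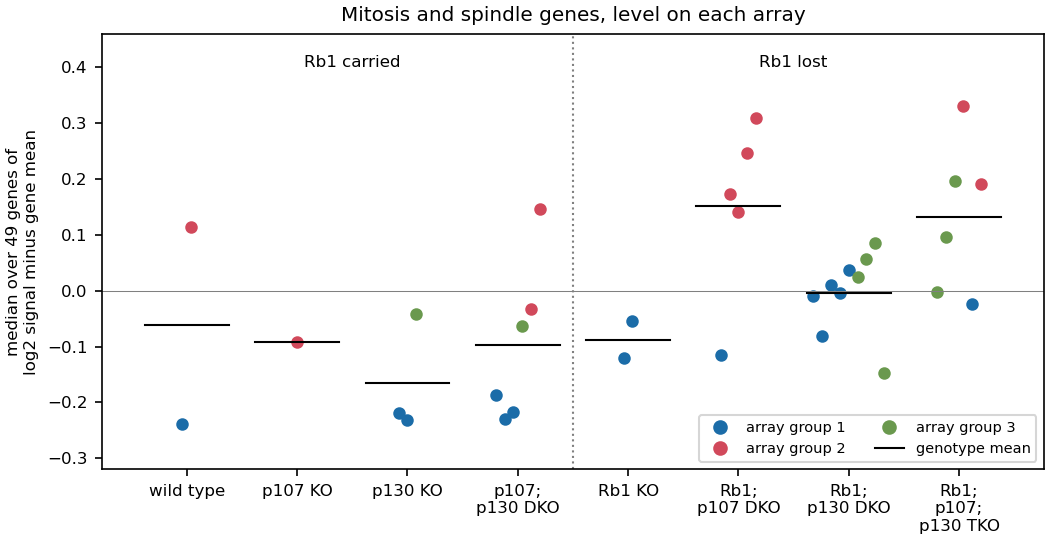
Level of the mitosis and spindle genes on each of the 34 arrays (the median over 49 genes of the log2 signal minus the gene's mean over arrays), by genotype, with points coloured by array group and lines at the genotype means. Over all genotypes the medians are -0.12, 0.16 and 0.02 in array groups 1, 2 and 3, and most genotypes have no array in at least 1 array group. In array group 1 the arrays with Rb1 (-0.24 to -0.19) lie below those without (-0.12 to 0.04).

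The rise with Rb1 loss was as large with array group in the fit. With it as a block, 18 of the 49 genes were called higher, among 2.99% of all genes, the 11 named above included, and the median change was 0.18. The 7 added were Spc25, Top2a, Mki67, Kif4, Anln, Incenp and Kif20a, with changes from 0.22 in Incenp to 0.48 in Mki67 in that fit. Within array groups 1, 2 and 3 taken alone, the medians were 0.19, 0.23 and 0.14, and limma called 10, 5 and 0 genes, all higher, against 1.34%, 1.2% and 0% of all genes called higher. At an unadjusted p under 0.05, 27, 26 and 5 of the 49 were higher, and over all 12723 genes array group 3 gave 4 calls. The change was above 0 in 43, 47 and 29 of the 49 genes, and in 11, 11 and 10 of the 11 called genes, the exception being Ube2c at -0.04 in array group 3, which has 2 arrays with Rb1.

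**Figure D4:**
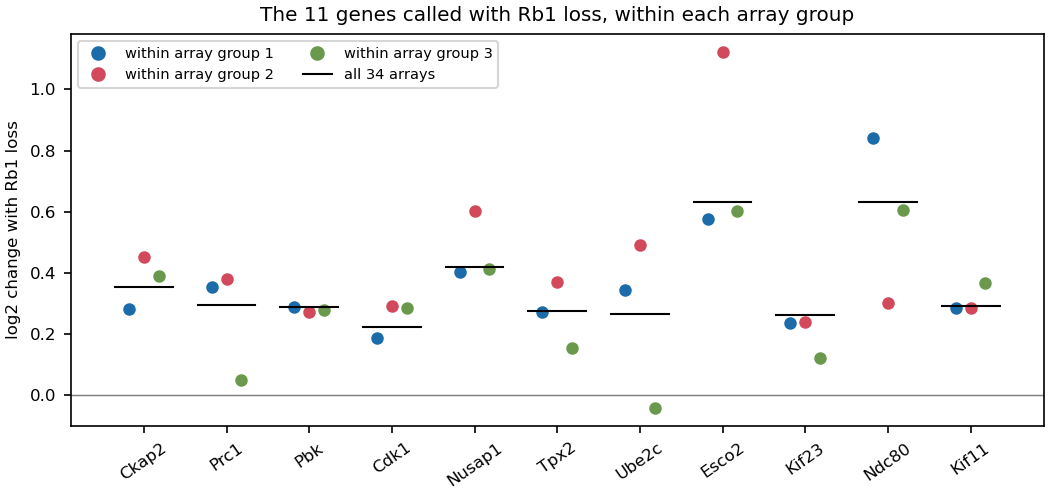
Log2 change with Rb1 loss for the 11 genes called over all 34 arrays, refitted within each array group (coloured points) beside the value over all arrays (black line). All points lie above 0 except Ube2c in array group 3, at -0.04, and Esco2 spreads most widely, from 0.58 to 1.12.

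Separate pairs of genotypes, with no array in common, show Rb1 loss on separate backgrounds. With p107 and p130 both absent, the triple knockout against p107;p130 DKO, the median of the 49 genes was 0.24 and 44 lay above 0. There Ckap2 rose, by 0.41 ± 0.10 (adjusted p = 0.0494), the 1 gene called of the 49, with 0.377% of all genes called in either direction and 0.299% called higher. Esco2 (0.87 ± 0.26), Ndc80 (0.74 ± 0.28), Nusap1 (0.58 ± 0.14) and Pbk (0.36 ± 0.09) had changes as large or nearly so and did not pass, with adjusted p of 0.205, 0.549, 0.0633 and 0.0519. The Ckap2 call was lost in 25 of the 34 fits that left out 1 array, and with array group as a block 4 genes were called higher, Nusap1, Pbk, Ckap2 and Esco2, against 0.692% of all genes. Without 1 array the count was 4 (without Rb1;p130 DKO array 9), 3 (without either wild type array, p107;p130 DKO array 6, Rb1;p107 DKO array 1 or triple knockout array 5), 2 (without Rb1;p130 DKO array 6), 1 or 0. With p130 absent and p107 carried, Rb1;p130 DKO against p130 KO, the median was 0.16 and 42 of 49 lay above 0. In that pair limma called 0 of the 49 (8 at an unadjusted p under 0.05) and 0.118% of all genes, with the largest change in Ndc80, 0.75. With p107 and p130 both carried, Rb1 KO against wild type at 2 arrays each, the median was 0.01 and 26 of 49 lay above 0. Limma called 0 of the 49 there (0 at an unadjusted p under 0.05) and 0.00786% of all genes. The wild type arrays decide this last value: the median was -0.22 without wild type array 1 and 0.16 without wild type array 2. Both Rb1 KO arrays and wild type array 1 are in array group 1, and wild type array 2 is in array group 2. With array group as a block the median of this pair was 0.12, 34 of 49 genes lay above 0 and limma called 0 of the 49.

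Whether the change in Rb1 KO differs from that on the other backgrounds was not tested. The difference that was tested, how far the effect of Rb1 loss depends on p107 with p130 absent, had a median of 0.06 over the 49 genes, and limma called 0 of them (0 at an unadjusted p under 0.05) and 0% of all genes (209 genes at an unadjusted p under 0.05). Loss of all 3 against wild type gave a median of 0.18 with 47 of 49 genes above 0, and limma called 0 of them (6 at an unadjusted p under 0.05, all higher), with 0.0786% of all genes called. That median too rested on the wild type arrays, at 0.03 without array 1 and 0.35 without array 2. It shares the triple knockout arrays with the first of those pairs and the wild type arrays with the last.

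Loss of p107 came with a change that shrank once array group was in the fit. Over all backgrounds 1 of the 49 genes was called higher, Melk, against 0.417% of all genes called higher and 1.14% in either direction. The median change was 0.11 and 40 of 49 genes lay above 0, against 49.1% of all genes. At an unadjusted p under 0.05, 16 of the 49 were higher, against 17.0% of all genes in either direction. Melk, a kinase of dividing cells, had a signal of 1713 and 2091 in wild type, 896.3, 1406 and 1887 in p130 KO, 1547 and 1660 in Rb1 KO and 843.7 to 1914 (median 1431) in Rb1;p130 DKO, all of which carry p107. It was 2079 on the p107 KO array, 1698.0 to 2457 (median 2184) in p107;p130 DKO, 1836, 2125, 2272, 2382 and 2506 in Rb1;p107 DKO and 1266 to 2481 (median 2176) in the triple knockout. The groups overlapped, with the higher values mostly where p107 was lost. The change was 0.46 ± 0.10, or 1.38-fold (adjusted p = 0.0158), and its change with Rb1 loss was -0.03 ± 0.11. With array group as a block Melk had 0.37 ± 0.09 (adjusted p = 0.0516), limma called 0 of the 49 genes (5 at an unadjusted p under 0.05) beside 0.322% of all genes called higher, and the median was 0.02. Within array groups 1, 2 and 3 the change of Melk was 0.19, 0.08 and 0.72. Within the array groups the median was 0.01, -0.11 and 0.08, where array group 2 has 1 array that carries p107. Without array 9 of Rb1;p130 DKO 3 genes were called, and 2 were called without any one of wild type array 2, p130 KO array 3, arrays 3 and 4 of p107;p130 DKO, array 1 of Rb1;p107 DKO and array 6 of Rb1;p130 DKO.

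**Figure D5:**
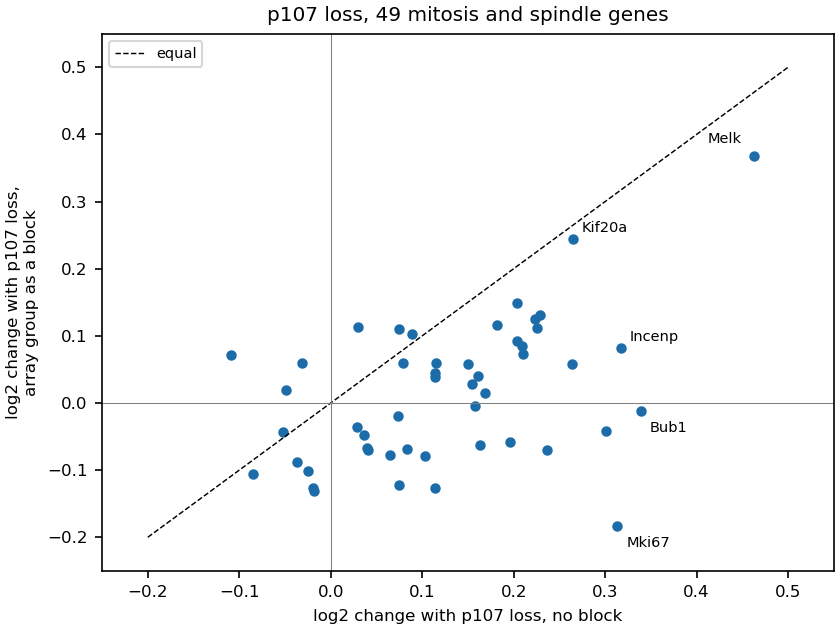
Log2 change with p107 loss for each of the 49 mitosis and spindle genes, without a block (horizontal axis) and with array group as a block (vertical axis), with a dashed line where both are equal. Most points fall below the line, and the median drops from 0.11 to 0.02, with Melk at 0.46 without the block and 0.37 with it (adjusted p = 0.0516).

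On matched backgrounds the changes with p107 loss did not pass the test. With p130 absent, p107;p130 DKO against p130 KO, the median was 0.08, with 0 of 49 called (1 at an unadjusted p under 0.05) and 0.0236% of all genes called. With Rb1 and p130 both absent, the triple knockout against Rb1;p130 DKO, the median was 0.13 with 42 of 49 above 0, and again 0 were called (5 at an unadjusted p under 0.05) beside 0.0236% of all genes. Both share arrays with the comparisons of Rb1 loss. At an unadjusted p under 0.05, 4.42% and 5.44% of all genes passed in these pairs. With array group as a block the medians were 0.01 and 0.04, with 26 and 29 of 49 genes above 0. Limma called 0 of the 49 in each of those fits.

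Loss of p130 left no gene of the 49 past the threshold. Over all backgrounds limma called 0 (4 at an unadjusted p under 0.05, 2 of them higher) and 0.0157% of all genes, the median was -0.02 and 23 of 49 lay above 0. Of all genes, 10.1% had an unadjusted p under 0.05 and 57.9% a change above 0. Changes ran from -0.29 in Incenp to 0.20 in Kif22, a kinesin that carries chromosome arms. With Rb1 and p107 both absent the median was -0.03, with 0 called (1 at an unadjusted p under 0.05) and 0.00786% of all genes. With array group as a block the median over all backgrounds was 0.05, and 42 of 49 genes lay above 0. With Rb1 and p107 both absent it was then 0.08, and 37 of 49 lay above 0. Limma called 0 of the 49 in either of these fits.

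Other genes of the same processes come from lists that do not overlap the 50. Of 102 other mitosis genes tested, 7 rose with Rb1 loss (6.86%), 0 fell, and the median was 0.11. They were Fbxo5, an inhibitor of the anaphase-promoting complex, with 0.51 ± 0.11, the centromere gene Cenpl with 0.39 ± 0.07, the kinesin Kif18b with 0.34 ± 0.08, Ube2s, which extends ubiquitin chains after Ube2c, with 0.28 ± 0.06, the condensin II subunit Ncapd3 with 0.20 ± 0.05, the condensin I subunit Ncapd2 with 0.27 ± 0.07, and Ccna2, cyclin A2, with 0.23 ± 0.06. Cenpl had a signal of 876.1 to 1768 (median 1374) with Rb1 and 1462 to 2087 (median 1832) without. Of 39 DNA replication genes 1 rose, the primase subunit Prim1 with 0.21 ± 0.06, a share of 2.56% near the 1.75% of all genes called higher, and the median was 0.07. Of 16 genes that regulate mitosis genes 3 rose, the E2F factors E2f8 with 0.54 ± 0.09, E2f1 with 0.46 ± 0.07 and E2f7 with 0.42 ± 0.08. Foxm1 (0.18 ± 0.12), Mybl2, which encodes B-MYB (0.25 ± 0.08), and the DREAM subunit Lin54 (0.26 ± 0.08) did not pass, at adjusted p of 0.645, 0.111 and 0.106. With p107 loss, Mybl2 fell by 0.39 ± 0.08 (adjusted p = 0.00802), Ccne1, cyclin E1, fell by 0.39 ± 0.06, and Cep55, a protein of abscission, rose by 0.37 ± 0.10. Each was the 1 call of its list, or 6.25% of the regulators, 2.56% of the replication genes and 0.98% of the other mitosis genes. Over all genes, 1.14% were called with p107 loss in either direction. No difference between these lists was tested.

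Of 8 marker lists for the cell types of fetal liver, 7 had 0 genes called with Rb1 loss in limma (at an unadjusted p under 0.05, 2 endothelial, 1 macrophage, 1 stellate and mesenchymal and 0 genes of the other 4 lists). The exception was erythroid, where 1 of 7 tested genes was called, Epor, the erythropoietin receptor, lower by 0.83 on the log2 scale. The summed signal of the erythroid markers was 94153 to 148209.8 (median 118018) with Rb1 and 96145 to 150088 (median 123325) without. The median change was 0.07 in erythroid, 0.08 in hepatocyte, -0.14 in macrophage, -0.06 in neutrophil, -0.04 in megakaryocyte, 0.11 in endothelial, 0.06 in stellate and mesenchymal and -0.06 in lymphoid markers. The part of any of these cell types in the change of the mitosis genes was not tested. Xist marked 17 arrays as female and Y-linked genes the other 17 as male. With sex in the fit 10 of the 11 genes were called with Rb1 loss, all but Kif11. Female arrays were 1 of 6 in p107;p130 DKO and 4 of 6 in the triple knockout. They were 3 of 3 in p130 KO, 5 of 9 in Rb1;p130 DKO, 1 of 2 in wild type and 0 of 2 in Rb1 KO. The pairs of genotypes that show Rb1 loss thus differ in sex too. With sex in the fit their medians were 0.22, 0.20 and 0.02 in that order, with 0 of the 49 genes called in each.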

How the data were processed

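Total RNA was read on 34 Affymetrix arrays. The deposited values are MAS5 signal intensity on a linear scale, made by the authors with GCOS 1.4 per the submitters' processing notes; other steps are not given in the sources used here. Of 45037 probe sets, 34945 had 1 gene symbol in the platform annotation, 932 had several and 9160 had none. A 2% trimmed mean of 500 was set on every array before taking log2(signal + 32). Each gene was read from its brightest probe set, and the test took the 12723 genes that reached 100 on at least 2 arrays.

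limma 3.58.1 in R 4.3.3 (lmFit, contrasts.fit, eBayes with trend, two-sided) fitted an additive model of Rb1, p107 and p130 loss, and 1 mean per genotype for 8 further comparisons, over all 34 arrays. Calls are at a Benjamini-Hochberg adjusted p under 0.05 over all genes tested. Named genes are those called in any comparison, the 3 with the smallest test statistic for Rb1 loss, and the genes of the other lists called with Rb1 loss. Other genes given with their values within a role or list were chosen after their values were seen. The genes and lists were chosen with earlier results of these data known. Array groups came from average-linkage clustering of log2 differences between the 2 brightest probe sets of 2996 genes. Alternatives were other pseudocounts, filters, normalization, probe set rules, variance models, blocks, sex, array groups, the groups compared alone and leaving out arrays. A test by probe set was added after the data were seen. Precision is limited by the number of arrays. The fit was tested on simulated data: for Rb1 loss over all backgrounds it recovered 23, 78 and 97 of 100 genes changed by 0.25, 0.5 and 1 on the log2 scale among 12723 genes.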

Additional observations from a re-analysis of the deposited data

Results flagged for a closer look

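Single arrays that stood apart from the rest of their genotype were looked for in the 4 genotypes with 4 to 10 arrays over 19 measures, 76 tests in all, by the gap to the nearest array over the range of the group, and 8 were found. Chance gives about 1 in 20. All values are log2(signal + 32). Array 1 of the Rb1;p107 DKO genotype lay below the other arrays for Tpx2 at 11.97, Ube2c at 14.49 and Cdc25b at 12.12. Array 5 of the same genotype lay above the others for Cdk1 at 13.02. In p107;p130 DKO, array 5 lay below the others for Cdk1 at 12.64 and array 4 above them for Bub1b at 11.66. In Rb1;p130 DKO, array 9 lay below the others for Nusap1 at 12.33 and array 8 above them for Cdc25b at 13.43.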

How the results depend on the processing

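On simulated data the fit for Rb1 loss over all backgrounds recovered 23 of 100 genes changed by 0.25. Those genes were drawn at random from all genes tested, with independent noise and no array groups. The rate is therefore not that of the mitosis genes, whose standard errors differ from gene to gene. Changes of the size seen here can be missed on these arrays. Of 750 values of the named genes under the alternatives, 46 changed sign. With Rb1 loss over all backgrounds, 11 genes became 17 with array weights, 18 with array group as a block, 5 and 0 within array groups 2 and 3, and 7 to 14 with 1 array left out. Over all 12723 genes, 288 calls in either direction became 505 with array weights and 560 with the block. Within array groups 2 and 3 they became 188 and 4. With p107 loss over all backgrounds, 1 gene became 2 with a stricter filter, 5 with array weights, 3 without Rb1;p130 DKO arrays 8 and 9, 0 with the array group block and within each array group, and 1 to 3 with 1 array left out. Calls over all genes also moved, from 145 to 645 with array weights and 479 without arrays 8 and 9. They were 164 of 9523 genes with the stricter filter, 84 with the block, and 14, 4 and 2 within array groups 1, 2 and 3. In the triple knockout against p107;p130 DKO, 1 gene became 2 with a pseudocount of 1, a stricter filter or the mean of all probe sets, 3 with quantile normalization, 6 with array weights, 5 with the replicate number as a block, 4 with the array group block or without arrays 8 and 9, and 0 with a pseudocount of 100, no filter, no trend, a robust fit, the groups compared alone, sex or within each array group, and 0 to 4 with 1 array left out. Over all genes the 48 calls of this pair became 64 with quantile normalization, 144 with array weights and 80 with the replicate block. They became 110 with the array group block and 72 without arrays 8 and 9. In Rb1;p130 DKO against p130 KO, 0 became 1 with the array group block, while calls over all genes went from 15 to 50. Among named genes, Ube2c turned to -0.041 in array group 3. Genes with almost no change crossed 0. Bub1b was at 0.0044 with quantile normalization, 0.094 with the mean of probe sets, 0.0015 in array group 2 and -0.024 to 0.022 with 1 array left out. Cdc20 was at 0.026 with the mean of probe sets, 0.052 with array weights, 0.0051 without arrays 8 and 9, 0.043 and 0.086 in array groups 1 and 2, and -0.035 to 0.040 with 1 array left out. Cdc25b was at 0.046 with array weights, 0.026 in array group 1 and -0.046 to 0.057 with 1 array left out. The cause was not tested. Median changes moved in array group 2 for p107 loss (-0.11), and in array group 1 for Rb1 KO against wild type (0.16) and for p130 loss with Rb1 and p107 absent (0.11). Without 1 wild type array, the medians ran from -0.22 to 0.16 for Rb1 KO and from 0.03 to 0.35 for loss of all 3. The replicate numbers did not meet the rule for pairing, that every same-numbered pair correlate over 0.1 in its deviations: 27 of 67 did (median 0.069), against 76 of 380 differently numbered pairs (median -0.0087). In that comparison of the triple knockout 2 of 6 pairs did, and 1 of 6 triple knockout arrays correlated best with its own number. With Rb1 loss over all backgrounds the replicate block gave 10 called genes.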
